A study of Mus musculus with 8 samples.

Results

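The proteasome subunit genes were taken as all protein-coding genes of the RefSeq mouse annotation whose symbol begins with Psma, Psmb, Psmc, Psmd, Psme or Psmg, which gave 50 of 21887 genes. Peaks of retinoid X receptor (RXR) chromatin immunoprecipitation and sequencing (ChIP-seq) were assigned to them when the summit, the position of highest signal, lay no more than 10 kb from one of the gene's ends. The material was the total heart of newborn mice at postnatal day 0, either wild type (WT, 2 hearts) or with both Rxra and Rxrb deleted in cardiomyocytes (edKO, 2 hearts). Hearts are numbered 3 and 4 in each genotype, each was fixed with DSG and formaldehyde, and each gave 1 RXR immunoprecipitate and 1 input library that served as its background. The deletion leaves the RXR genes of endothelial cells, fibroblasts and blood cells of the edKO heart in place, and what drove the deletion is not stated in the labels. Nothing in the labels says that the 2 hearts of a genotype came from separate litters.

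The proteasome is the protease that degrades ubiquitin-tagged proteins. Its core particle is a stack of rings, with alpha subunits (Psma genes) as gate and beta subunits (Psmb genes) holding the active sites, and its regulatory particle unfolds substrates with ATPases (Psmc genes) and binds, positions and deubiquitinates them with non-ATPase subunits (Psmd genes). Activators (Psme genes) can cap the core in place of the regulatory particle, and dedicated chaperones (Psmg genes and some Psmd genes) guide assembly. RXR is a nuclear receptor that binds DNA together with partners such as the PPAR, LXR and thyroid hormone receptors, commonly at copies of the half-site AGGTCA.

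Proteasome subunit genes carried RXR regions about as often as protein-coding genes in general, and most of the regions found near them in both WT hearts lay closer to another gene. In WT replicate 3, 23 of the 50 genes had a peak (46.0%), against 42.4% of all protein-coding genes. In WT replicate 4, 7 had one (14.0%), against 15.8%. A region with overlapping peaks in both WT hearts was found near 8 genes (16.0%, 95% Clopper-Pearson interval 7.17 to 29.1%), against 15.2% of all genes. The share among the members was thus near the background in each WT list. No member had a peak in edKO replicate 3, where 0.0548% of all genes had one, or in edKO replicate 4, where 0.58% did (0 of 50, interval 0.0 to 7.11%). These shares of all genes correspond to 0.0274 and 0.29 genes out of 50, so an absence of edKO peaks at a list of this size is also near the background.

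**Figure D1:**
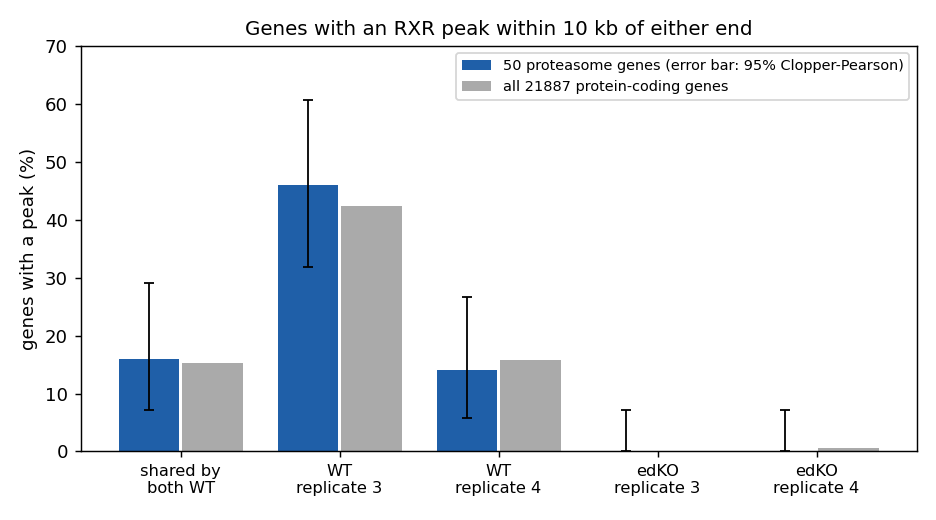
Share of genes, in percent, with an RXR peak near either end, for the 50 proteasome subunit genes (blue, error bars are 95% Clopper-Pearson intervals that treat genes as independent) and for all 21887 protein-coding genes (grey), in regions shared by both WT hearts and in each heart. The blue and grey bars stand close together in the WT columns (46.0 against 42.4% in WT replicate 3), and the edKO columns are at or near 0.

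The 8 genes with a shared region were Psmd2, Psmc1, Psme1, Psmd12, Psme3ip1, Psmb3, Psma1 and Psme3, and they lay near 10 regions. Only 3 of these regions had a member as the nearest gene, namely those at Psmb3, Psme3ip1 and the start of Psmd12. At Psme3ip1 the summit also lay inside LOC115486880, so both genes count as nearest. The other 7 were nearest to Eif4g1 (2 regions), Nrde2, Fitm1, Pitpnc1, Copb1 and Aoc3. With only the nearest gene of each summit counted, the number of members with a shared region fell from 8 to 3 of the 50. The share of all genes fell from 15.2 to 10.6%. How often regions within reach of other genes lie nearest to a different gene was not counted.

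The bases before 6 transcription starts are shown because peaks of both WT hearts lay over or beside them: the starts of Psmb3, Psmd12 and Psme3ip1, and those of the neighbours Eif4g1, Fitm1 and Copb1, of which the first had the strongest region within reach of a member. The shown stretches are chr11:97703184-97703433 (Psmb3, plus strand), chr11:107479278-107479527 (Psmd12, plus), chr8:94601727-94601976 (Psme3ip1, minus), chr16:20672477-20672726 (Eif4g1 near Psmd2, plus), chr14:55575424-55575673 (Fitm1 near Psme1, plus) and chr7:114254681-114254930 (Copb1 near Psma1, minus). Each run gives the 250 bases before the start, 5′ to 3′ on the gene's strand, from RefSeq on GRCm38.p6. Capitals mark matches, on either strand, to any of 6 motifs. The first was the nuclear receptor half-site, AGGTCA. The second was TGACNNNGC, the core of the antioxidant response element, through which the products of Nfe2l1 and Nfe2l2 raise proteasome genes. The others were the CCAAT box, the ETS factor core written CCGGAAG, the nuclear respiratory factor core written GCATGCGC, and the E-box written CACGTG.
Psmb3: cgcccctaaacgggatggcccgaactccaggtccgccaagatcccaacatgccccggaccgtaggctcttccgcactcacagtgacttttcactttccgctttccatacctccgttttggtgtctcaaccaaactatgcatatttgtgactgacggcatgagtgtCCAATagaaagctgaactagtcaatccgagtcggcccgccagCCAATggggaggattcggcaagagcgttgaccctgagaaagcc
Psmd12: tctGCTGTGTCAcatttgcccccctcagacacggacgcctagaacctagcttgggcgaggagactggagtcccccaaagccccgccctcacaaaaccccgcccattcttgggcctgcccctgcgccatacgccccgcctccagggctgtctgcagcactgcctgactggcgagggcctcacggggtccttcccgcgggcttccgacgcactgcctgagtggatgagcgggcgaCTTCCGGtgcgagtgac
Psme3ip1: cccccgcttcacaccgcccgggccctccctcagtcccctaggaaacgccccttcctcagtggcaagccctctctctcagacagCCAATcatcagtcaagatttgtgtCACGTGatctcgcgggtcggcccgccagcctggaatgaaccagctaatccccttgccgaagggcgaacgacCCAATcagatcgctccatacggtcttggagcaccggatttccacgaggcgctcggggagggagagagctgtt
Eif4g1: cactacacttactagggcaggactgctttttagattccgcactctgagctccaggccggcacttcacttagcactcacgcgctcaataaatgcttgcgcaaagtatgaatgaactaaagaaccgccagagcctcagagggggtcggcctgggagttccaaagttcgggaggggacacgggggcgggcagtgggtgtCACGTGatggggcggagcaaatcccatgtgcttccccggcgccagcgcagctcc
Fitm1: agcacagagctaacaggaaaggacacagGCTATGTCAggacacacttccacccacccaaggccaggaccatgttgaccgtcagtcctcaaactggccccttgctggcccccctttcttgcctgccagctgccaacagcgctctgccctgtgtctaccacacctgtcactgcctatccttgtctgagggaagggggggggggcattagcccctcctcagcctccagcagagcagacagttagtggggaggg
Copb1: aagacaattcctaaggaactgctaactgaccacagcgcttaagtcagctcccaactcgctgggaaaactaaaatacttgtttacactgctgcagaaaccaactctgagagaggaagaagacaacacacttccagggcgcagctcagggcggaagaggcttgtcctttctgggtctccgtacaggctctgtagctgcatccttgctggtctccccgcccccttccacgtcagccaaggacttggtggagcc

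Psmb3 had 2 CCAAT matches, beginning 85 and 43 bases before its start. Psmd12 had a TGACNNNGC match 247 bases and a CCGGAAG match 17 bases before its start. Psme3ip1 had CCAAT matches at 167 and 72 bases and a CACGTG match at 143 bases. The Eif4g1 run held 1 CACGTG match at 54 bases and the Fitm1 run 1 TGACNNNGC match at 222 bases. The Copb1 run held no match to any of the 6 motifs. None of the 6 runs contained the letters AGGTCA, which says only that this exact half-site is not in these windows.

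The strongest region within reach of a member was on chromosome 16 from 20672183 to 20672907 (mm10), 9242 bp beyond Psmd2, which encodes a large scaffold subunit of the regulatory particle. Its fold enrichment, the authors' ratio of fragments at the summit to local background, was 28.9 in WT replicate 3 and 18.6 in WT replicate 4, and there was no peak in edKO replicates 3 and 4. The fragment numbers at the summit, solved from the deposited fold enrichment and p, were 108 in WT replicate 3 and 76 in WT replicate 4 (95% Poisson interval 59.9 to 95.1), over local backgrounds of 2.77 and 3.0 fragments. It ranked 119 of the 4342 shared regions by mean fold enrichment. The summit lay 71 bp before the start of Eif4g1, which encodes the scaffold of the translation initiation complex, and 21.0 kb downstream of the Psmd2 start. A weaker shared region followed inside Eif4g1, from 20673149 to 20673531, with 4.88-fold and 5.41-fold enrichment and 16 and 18 fragments.

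The region within reach of Psmc1, which encodes an ATPase of the regulatory particle, was on chromosome 12 from 100128004 to 100128470, 4861 bp beyond the gene and inside Nrde2, a gene of nuclear RNA processing. It had 17.5-fold enrichment with 65 fragments in WT replicate 3 and 5.48-fold with 33 fragments in WT replicate 4. The solved local background was 2.77 fragments in the former and 5.0 in the latter. At the Psmc1 start itself, WT replicate 3 alone had a peak, 89 bp downstream, with 4.88-fold enrichment and 16 fragments.

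Near Psme1, which encodes the alpha subunit of the interferon-inducible activator, the shared region was on chromosome 14 from 55575297 to 55575632. It lay 3027 bp before Psme1 and 207 bp before Fitm1, whose product promotes lipid droplet formation and is typical of striated muscle. Fold enrichment was 15.5 in WT replicate 3 and 5.92 in WT replicate 4, with 53 (39.7 to 69.3) and 21 (13.0 to 32.1) fragments. WT replicate 3 had 3 further peaks around the neighbouring pair Psme1 and Psme2, which encodes the beta subunit of that activator: 1 was 45 bp before the Psme1 start (5.17-fold), 1 inside Emc9 (6.03-fold) and 1 between Psme2 and Rnf31 (6.32-fold), a ubiquitin ligase gene. Both activator genes count these 3 peaks, since they lie within reach of each.

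Psmd12, a non-ATPase subunit gene, had 2 shared regions on chromosome 11. The upstream one, from 107473012 to 107473530, lay 6179 bp before the Psmd12 start and 2629 bp from Pitpnc1, a phosphatidylinositol transfer protein gene, with 11.7-fold and 8.72-fold enrichment and 54 and 30 fragments in WT replicates 3 and 4. The other, from 107479367 to 107479794, covered the Psmd12 start, with 5.83-fold and 4.09-fold enrichment and 21 and 13 fragments. Summits of the hearts lay 81 bp after and 10 bp before the start. The distal region was the stronger one in both hearts.

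Psmb3, a structural beta subunit gene, had the only shared region of the core particle that was nearest to a member. It was on chromosome 11 from 97702923 to 97703557, with the WT replicate 3 summit 190 bp before the start, 8.22-fold and 5.33-fold enrichment, and 30 and 21 fragments. WT replicate 3 had 2 more peaks upstream, inside the Polycomb gene Pcgf2, of 6.36-fold and 4.10-fold.

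The region at Psme3ip1, on chromosome 8 from 94601396 to 94602222, was the strongest that overlapped a member's own start, with 12.2-fold and 6.55-fold enrichment and 45 and 22 fragments. Its product is a partner of the Psme3 activator and not a proteasome subunit, and the gene is a member by its symbol alone. The meiotic recombination gene Psmc3ip, the other member of this kind, had no peak in any heart.

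The remaining shared regions were weak. The one within reach of Psma1, an alpha subunit gene, was on chromosome 7 from 114254323 to 114254842 over the start of the coatomer gene Copb1, with 6.03-fold and 6.29-fold enrichment and 20 and 25 fragments. Its summit lay 9896 bp from Psma1 in WT replicate 3 and 10042 bp in WT replicate 4, so only the former heart counts it. At the Psma1 start, WT replicate 3 alone had a peak, 27 bp downstream, with 5.85-fold enrichment and 20 fragments. The region near Psme3, which encodes the nuclear proteasome activator, was the weakest, on chromosome 11 from 101330425 to 101330865 inside the amine oxidase gene Aoc3. It had 3.62-fold and 4.38-fold enrichment with 16 and 14 fragments, and ranked 4295 of 4342.

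**Figure D2:**
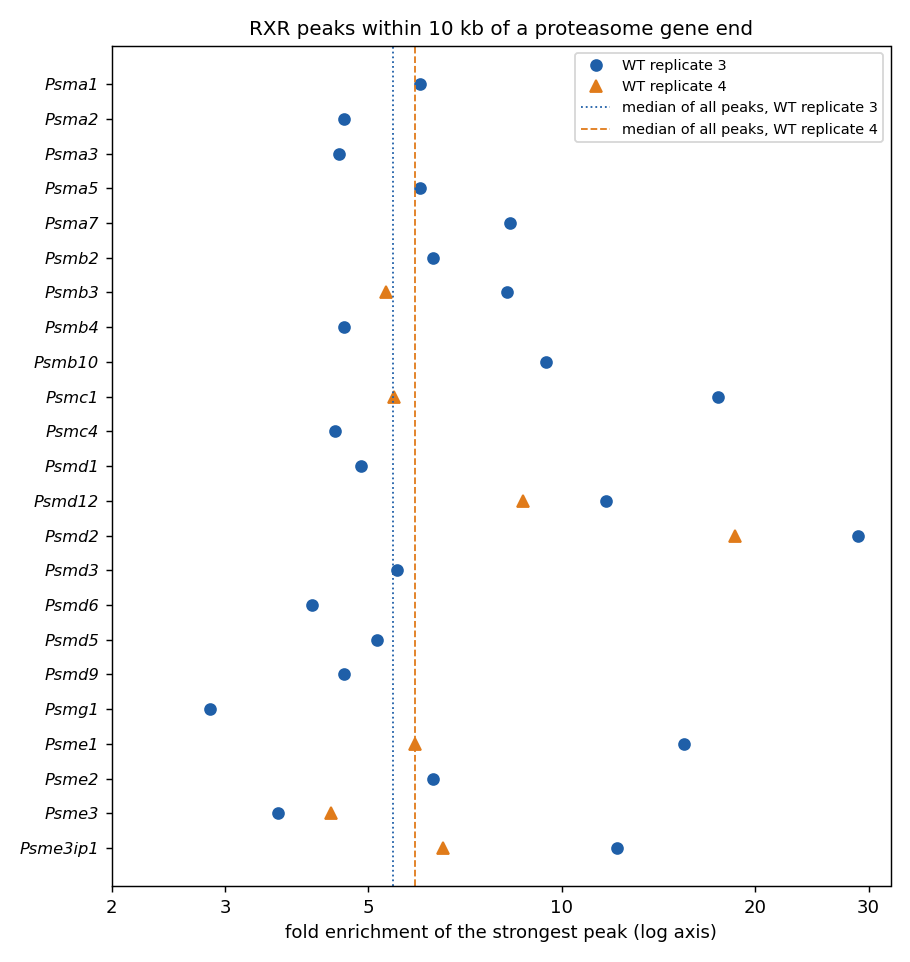
Fold enrichment (log axis) of the strongest peak near each of the 23 members with a peak, as circles for WT replicate 3 and triangles for WT replicate 4, with the median of all peaks of each heart as a dotted and a dashed line (5.46 and 5.92). Psmd2 stands farthest to the right in both hearts (28.9 and 18.6), most members have a circle only, and edKO hearts have no point because they have no peak.

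Over the 10 shared regions the median fold enrichment was 9.96 in WT replicate 3 and 5.70 in WT replicate 4, beside 9.19 and 6.05 over the 2598 shared regions near any protein-coding gene. In WT replicate 3, 5 of the 10 lay above that median, and in WT replicate 4, 4 did. Taking every member peak, the median was 5.17 over 35 peaks in WT replicate 3 and 5.48 over 9 peaks in WT replicate 4, beside 5.45 and 5.84 over all peaks near genes. The members' medians lay within 1 fold unit of those of all regions near genes in each list.

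Members with a peak of WT replicate 3 alone were mostly weak, and the strongest 5 were Psmb10, Psma7, Psmb2, Psme2 and Psma5. Psmb10, which encodes an interferon-inducible catalytic subunit of the immunoproteasome, had a peak inside the gene, 1255 bp after its start, with 9.47-fold enrichment and 32 fragments. Psma7, an alpha subunit gene, had 8.32-fold enrichment 8643 bp upstream, inside the chromatin remodelling gene Ss18l1, and 2 peaks at its own start of 4.02-fold and 3.18-fold. The peak of the beta subunit gene Psmb2 had its summit on the lower annotated end of the gene (6.32-fold, 21 fragments), and that of the alpha subunit gene Psma5 lay 4403 bp beyond the gene in Sort1, a sorting receptor gene (6.03-fold, 20 fragments). The weakest peak of all was at the start of the assembly chaperone gene Psmg1, with 2.85-fold enrichment and 15 fragments.

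Peaks of WT replicate 3 that lay at a member's own start were mostly small. Their share was above that of all genes at 300 bp and close to it at 1000 bp. Of 38 pairs of a member and a peak, 17 had the summit no farther than 300 bp from that member's start, or 44.7%, beside 30.1% over the 15883 pairs of all genes. Psmb2 and Psmd3 are among them by their nearer gene end, since no start is listed for them, and with listed starts alone the count was 15 of 36 (41.7%), beside 31.5%. At 1000 bp the shares were 47.4 and 43.4%, or 44.4 and 44.3% with listed starts alone. The 17 peaks belonged to 16 genes, among them Psmd1, Psmd3, Psmd6, Psmc4, Psmb4 and Psmd9, and had a median of 4.88-fold enrichment (2.85 to 12.2) and 17.0 fragments (11 to 45), while the 18 peaks farther away had a median of 6.03-fold (3.62 to 28.9). A window of 250 bases before to 50 after a start could be had for 42 members, and a peak of WT replicate 3 overlapped it in 15 (35.7%, interval 21.6 to 52.0%), beside 24.6% of 17492 protein-coding genes. In WT replicate 4 this held for 3 (7.14%), beside 7.71%.

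The higher share at starts in WT replicate 3 did not recur in the shared regions, of which 3 of 10 pairs (95% interval 6.67 to 65.2%) had the summit within 1000 bp of the member's start, beside 48.0% of all pairs. At 300 bp it was the same 3, beside 34.1%. The interval treats the 10 pairs as independent, though Psmd2 and Psmd12 gave 2 pairs each. No test was made of these differences between members and all genes. One of the 15 windows belonged to Psma6, whose peak at an inner start (6.32-fold, 24 fragments, 82 bp before it) lay 14521 bp from the gene's nearer end, and which therefore does not count among the 23 genes.

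**Figure D3:**
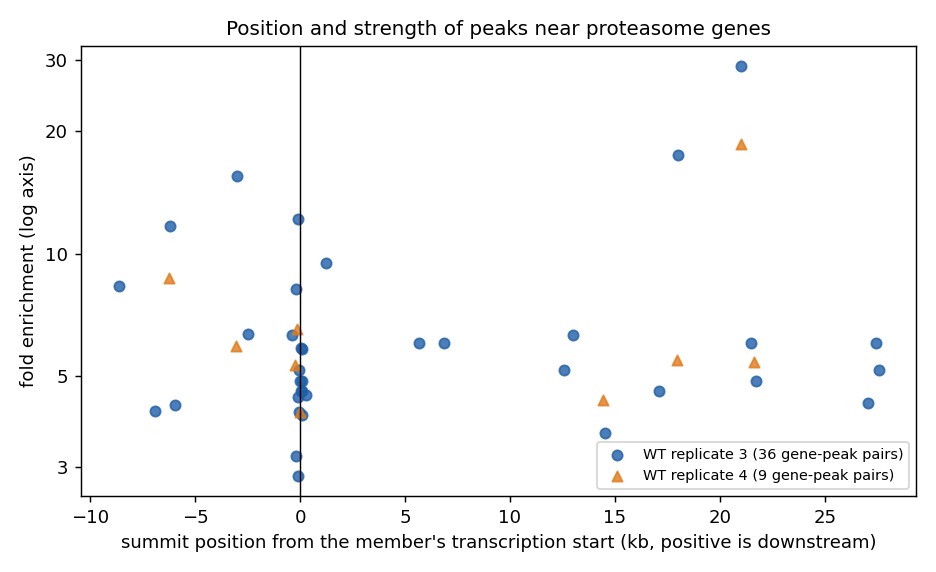
Fold enrichment (log axis) against the position of the summit from the member's transcription start in kb, for pairs of a member and a peak with a listed start (36 in WT replicate 3, circles, and 9 in WT replicate 4, triangles). A column of mostly weak circles stands at 0, while the highest points, at 21.0 kb, belong to Psmd2 and lie at the start of Eif4g1.

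The 10 kb limit fell among several peaks. Just inside it were the summits near Psme1 (9960 bp, 6.32-fold), Psmd2 (9956 bp, 4.88-fold) and Psma1 (9896 bp, 6.03-fold). Just outside were those near the ATPase gene Psmc5 (10106 bp, 16.2-fold, 60 fragments), Psmd13 (10163 bp, 6.97-fold) and the catalytic subunit gene Psmb5 (10517 bp, 5.55-fold).

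By role, the alpha ring had a WT replicate 3 peak near 5 of 8 genes and a shared region near 1 (Psma1), and the constitutive beta ring near 3 of 7 and 1 (Psmb3). The 3 constitutive beta genes with a peak were Psmb2, Psmb3 and Psmb4, while Psmb5, Psmb6 and Psmb7 with the active sites, and Psmb1, had none. Of the immune and thymic beta genes, Psmb10 had a WT replicate 3 peak, and Psmb8, Psmb9 and Psmb11 had none in any heart. The ATPases counted 2 of 6 (Psmc1 and Psmc4) with 1 shared. The non-ATPases counted 5 of 11 with 2 shared, and Psmd4, Psmd7, Psmd8, Psmd11, Psmd13 and Psmd14 had no peak. The assembly chaperones counted 3 of 7 (Psmd5, Psmd9 and Psmg1) with none shared. The activators counted 3 of 5 with 2 shared, and Psme4 and Psme2b had no peak. Of all protein-coding genes, 42.4% had a WT replicate 3 peak and 15.2% a shared region. With 4 to 11 genes a group, these counts do not separate the groups from each other or from those shares.

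Of the members without a peak, Psmb8, Psmb9, Psmc2, Psme2b, Psmd8 and Psmg2 had the nearest WT replicate 3 summit outside the gene between 57.8 and 93.0 kb from its nearer end. It was 118, 191, 194 and 349 kb away for Psmd14, Psma4, Psmd7 and Psmd10. For the others it was 10.1 to 50.7 kb away, apart from the peak inside Psma6.

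A list of other genes of the pathway held cofactors and regulators outside the subunit symbols. A shared region was found at 11 of its 25 genes (44.0%), beside 15.2% of all genes. A WT replicate 3 peak was found at 18, where 42.4% of all genes had one, and no edKO peak was found. The list was chosen with earlier results of these data known, and the part of that choice in its shares was not tested. The strongest shared region was at Nfe2l2, which encodes the antioxidant regulator NRF2, 29 bp after its start. It had 26.1-fold enrichment and 90 fragments in WT replicate 3, and 6.94-fold and 42 fragments in WT replicate 4. It was followed by the proteasome-bound deubiquitinase gene Uchl5 (15.6-fold and 8.71-fold), the proteasome-associated ubiquitin ligase gene Ube3c (13.4-fold and 8.71-fold) and Zfand5, whose product activates the proteasome (13.2-fold and 7.88-fold). Of these 11 genes 9 had the summit of their strongest region no farther than 300 bp from their own start. Over all pairs of a gene and a shared region this share was 34.1%, a count that takes every region and not only the strongest. Nfe2l1, the transcription factor gene that restores proteasome synthesis and is named here after its values were seen, had its region 9 bp before a start, with 5.17-fold and 6.55-fold enrichment.

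Among 8 ubiquitin ligase genes of muscle or general protein quality control, 4 had a shared region (50.0%), beside 15.2% of all genes. None of the 8 had an edKO peak, which for so short a list is near the shares of all genes (0.0548 and 0.58%), as it is for the 25 pathway genes. They were the chaperone-linked ligase gene Stub1 (13.2-fold and 3.96-fold in WT replicates 3 and 4), Mdm2, the ligase gene for p53 (7.33-fold and 6.71-fold), the sarcomere-associated Trim55 (6.32-fold and 6.13-fold) and Fbxo30 (4.63-fold and 7.30-fold). The lists were not tested against the subunit genes or against all genes.

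**Figure D4:**
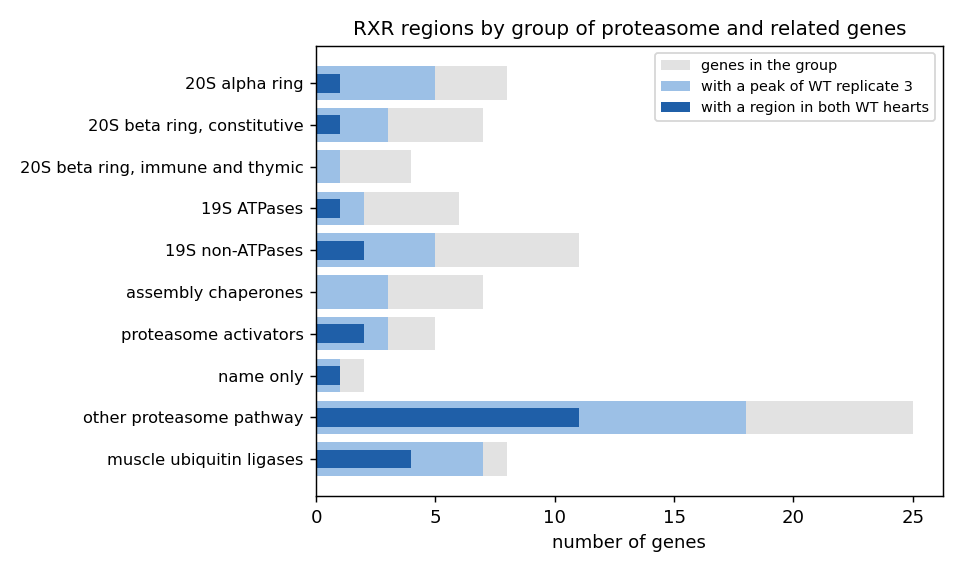
Number of genes in each group (grey), with a peak of WT replicate 3 (light blue) and with a region in both WT hearts (dark blue), for the roles of the proteasome subunit genes and for both lists of related genes. The dark bars reach at most 2 genes in the subunit groups and 11 of 25 in the related pathway genes.

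The genotypes were compared to ask how far RXR signal depends on the receptors of cardiomyocytes. The number of members with a peak was 23 in WT replicate 3, 7 in WT replicate 4, and 0 in both edKO replicates. Both WT values lay above both edKO values. The mean was 15.0 ± 11.3 (SD, n = 2) in WT and 0.0 ± 0.0 (SD, n = 2) in edKO, and the exact two-sided permutation test gave p = 0.333, the smallest that 2 hearts against 2 allow. The WT mean rests on WT replicate 3: the difference was 7.0 without it and 23.0 without WT replicate 4. The shares of all genes were 42.4, 15.8, 0.0548 and 0.58% in WT 3, WT 4, edKO 3 and edKO 4. For 50 genes these correspond to 21.2, 7.92, 0.0274 and 0.29. The member counts were near these values, so the difference between genotypes is not particular to proteasome genes.

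The lists differed in length and in their weakest peaks. The lists held 19129, 4697, 8 and 127 peaks for WT 3, WT 4, edKO 3 and edKO 4. From the deposited values, the most frequent local background was solved as 2.48, 2.32, 3.11 and 2.96 fragments in that order, and the fewest fragments of any peak as 11, 12, 24 and 17. The lowest −log10 q was 1.37, 1.57, 3.53 and 1.47, so the weakest of the 8 peaks of edKO 3 lay well above the level at which peaks were still listed in the others, and 24 fragments is not a calling limit. Of the 35 member peaks in WT replicate 3, 14 had fewer than the 17 fragments of the weakest edKO replicate 4 peak, and 26 fewer than the 24 of edKO replicate 3.

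The shared regions were larger. In both WT hearts 7 of 10 reached at least 17 fragments and 3 reached at least 24, namely the strongest at Psmd2, that at Psmc1 and the upstream one at Psmd12. In these 3 regions the WT fragments were thus at or above those of the weakest peak of each edKO list. They were not set against stronger edKO peaks, and this does not say that an edKO list would have called such a region. The lists record nothing where no peak was called, so a lower edKO signal was not detectable in them, and fewer bound cells and less binding per cell cannot be told apart in whole hearts.

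**Figure D5:**
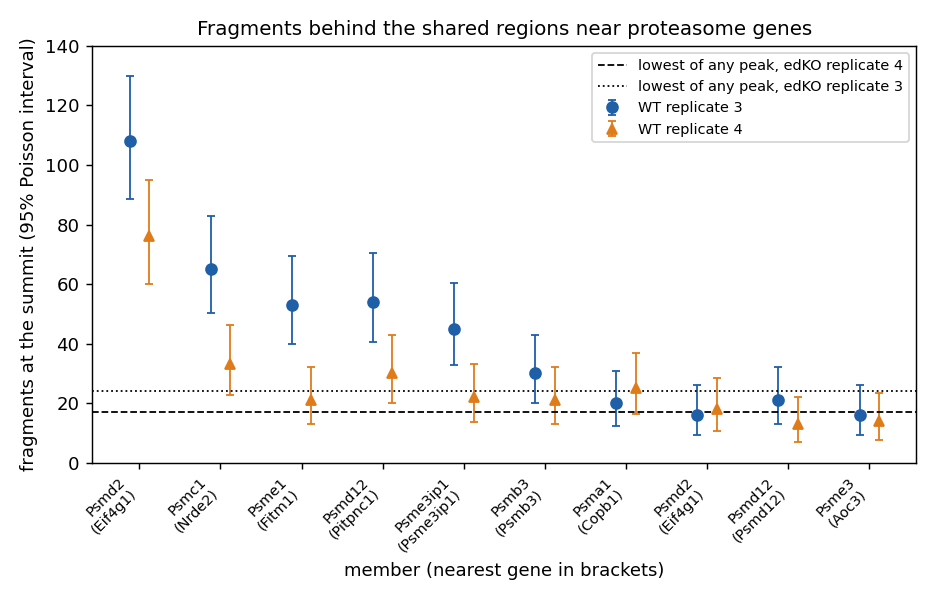
Fragments at the summit, with 95% Poisson intervals that cover counting error only, for the 10 shared regions near members, in WT replicate 3 (circles) and WT replicate 4 (triangles), with the nearest gene in brackets. The dashed and dotted lines give the weakest peak of edKO replicate 4 (17) and edKO replicate 3 (24), and 7 of the 10 regions lie under the upper line in at least 1 heart.

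Motifs were counted over the windows of 42 members and of 17492 protein-coding genes. AGGTCA was present in 10 member windows (23.8%), beside 16.7% of all genes. Among windows with a WT replicate 3 peak, it was in 4 of 15 (26.7%), beside 17.2% of 4295 genes. The members with it were Psma3, Psma6, Psma7, Psmb10, Psmc2, Psmc3ip, Psmc4, Psmc5, Psmd2 and Psmd6. Paired half-sites, as 2 copies of AGGTCA in the same direction with 1, 2, 4 or 5 bases between them, occurred in no member window and in 10, 0, 0 and 1 of all genes.

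CCGGAAG was present in 16 member windows (38.1%), beside 12.9% of all genes and 22.9% of the 4295 genes with a WT replicate 3 peak over the window. It was found in Psma6, Psmc1, Psmc2, Psmc3ip, Psmc6, Psmd2, Psmd4, Psmd6, Psmd11, Psmd12, Psmd13, Psme3, Psme3ip1, Psme4, Psmg1 and Psmg3, and in 6 of the 15 windows with a peak. CCAAT stood in 16 (38.1%, beside 42.3%), TGACNNNGC in 6 (14.3%, beside 14.8%), CACGTG in 5 (11.9%, beside 8.91%) and GCATGCGC in 3 (7.14%, beside 3.94%). The TGACNNNGC matches were in Psmb5, Psmb6, Psmc6, Psmd9, Psmd12 and Psme4, of which Psmd9 and Psmd12 had a peak over the window. Matches of different motifs did not overlap in any member window, and a match is a description of letters and not of binding.

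Among 6 cardiomyocyte marker genes, Myh6, Myh7 and Tnnt2 had a shared region, which for Myh6 and Myh7 was the same one. Of the other markers, 4 of 6 endothelial, 1 of 6 fibroblast and 2 of 6 blood and macrophage genes had one. The share of all genes was 15.2%. A region near a gene is no measure of its expression. The region of Myh6 and Myh7 (70.8-fold and 51.3-fold) also had a peak in edKO replicate 4 (18.7-fold), unlike any region near a proteasome subunit gene. Of the 6 endothelial marker genes, 1 had a peak in edKO replicate 3 and 2 in edKO replicate 4, beside 0.0548 and 0.58% of all genes. The fibroblast and blood lists had none, which for 6 genes is near those shares.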

How the data were processed

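RXR ChIP-seq was analysed in 2 WT and 2 edKO hearts of newborn mice from the 4 deposited peak lists, each from 1 heart's immunoprecipitate with its own input as background. Per the submitters' processing notes, cutadapt, BWA, SAMtools and MACS3 were used on mm10 (GRCm38), with versions, settings and duplicate handling not given in the sources used here. Fold enrichment, as deposited by the authors, is a ratio of summit signal to local background, and the deposited −log10 p and −log10 q values give each peak's significance within its own list. Fold enrichment was compared within its list, except that shared regions were ranked by the mean of both WT folds, and solved fragment numbers were set beside the lowest of the edKO lists.

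From these, in Python 3.11.15 with scipy 1.17.1, whole fragment numbers and local backgrounds were solved (fold with a pseudocount of 1, Poisson upper tail). The p of 19121 of 19129 peaks in WT replicate 3 and of every peak in the other lists was met within 0.02 on the log10 scale, after scaling by 0.967 in WT replicate 4 and 0.992 in edKO replicate 3. The code was tested on simulated data. Peaks of the WT hearts overlapping by 1 bp or more formed 4342 regions, with the summit of WT replicate 3. Genes came from a RefSeq table of GRCm38.p6 and starts and promoter windows from RefSeq on the same build. Intervals are 95%, Clopper-Pearson for shares and Poisson for fragments, and cover counting error only. For genes with no listed start, the nearer gene end was used. Numbers per heart were compared by an exact permutation test, and no test was made of lists.

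Named with values were members with a shared region, the 5 strongest with a peak of WT replicate 3 alone, the weak end of the shared regions, and the 4 strongest of each related list. The members and lists were chosen with earlier results of these data known. Alternatives were other distances, stricter peaks, other overlap rules, the nearest gene only, leaving out hearts, and pairing by number. Counting peaks anywhere inside a gene, the summit of WT replicate 4 for the distance and leaving out members by name only, and listed starts alone, were added after seeing the data.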

Additional observations from a re-analysis of the deposited data

How the results depend on the processing

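The number of members with a shared region (8) was 3 within 1000 bp of either gene end, 16 within 50 kb, and 3 with the nearest gene only, where 8.38, 31.9 and 10.6% of all genes had one. Leaving out a WT heart gave 7.0 to 23.0, the higher value without WT replicate 4. It stayed between 7 and 8 under stricter −log10 p or −log10 q, other overlap rules and the 3 settings added after seeing the data. The WT replicate 3 count (23) was 39 within 50 kb and 14 at a −log10 p of at least 10 (63.8 and 30.4% of all genes). It was 17 within 1000 bp and 17 with the nearest gene only (27.1 and 32.9%). The WT replicate 4 count (7) was 3 within 1000 bp, 16 within 50 kb and 3 with the nearest gene only (8.77, 33.0 and 11.2%). The edKO replicate 4 count was 0 in every setting run, up to 50 kb, where 0.274 to 1.47% of all genes had a peak. For 50 genes, 0 is near those shares. The WT minus edKO difference (15.0) was 7.0 to 23.0 with a heart left out, 10.0 to 27.5 under other thresholds and distances, and 15.0 with the replicate block, where the exact paired permutation test gave p = 0.5, the smallest that 2 pairs allow. The labels do not say that a number marks a shared litter or day. The share of shared regions at starts was the same in every setting run, and the motif shares in promoters with a WT replicate 3 peak moved by less than 3 percentage points. Read depth is not in the lists, and its part in the low counts of WT replicate 4 and the edKO hearts was not tested.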
